A study of Columba livia and Gallus gallus with 96 samples.

Results

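Cell cycle and mitosis genes were chosen by gene symbol from a list of 54 that spans the G1 cyclins, the licensing and copying of DNA, the mitotic cyclins and kinases, the spindle checkpoint, chromosome structure, the spindle and cytokinesis. Of these, 52 had at least 1 feature under that name, in a table of 14345 named genes. Their 61 features were summed per symbol, and all 52 genes passed the filter on low counts. No feature carried the names CDK2 or MCM4, so those genes were not analysed here.

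RNA was measured in limb buds of domestic pigeon (Columba livia) embryos of 3 foot phenotypes, muff, grouse and scale. Muff and grouse pigeons have feathered feet, and scale pigeons have scaled feet. Hindlimb and forelimb buds were collected at Hamburger-Hamilton stages HH21, HH25 and HH29, which are embryonic days 3.5, 4.5 and 6 per the labels. Each of the 18 groups of phenotype, limb and stage (muff, grouse and scale hindlimb, then muff, grouse and scale forelimb, at each stage) held 4 libraries of poly(A) RNA, 72 in all. The labels name no treatment or transgene in any group. The labels speak of pairs of forelimb and hindlimb buds and mention no sorting, so each library can mix mesenchyme, ectoderm, vessels and muscle precursors.

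A dividing cell passes through G1, copies its DNA in S phase, prepares for division in G2 and divides in M phase. Cyclins switch on cyclin-dependent kinases at each step, and many genes of S phase and mitosis are transcribed only in cycling cells, so their RNA is widely used as a sign of proliferation. The early limb bud grows by rapid division of its mesenchyme, and cells that form cartilage or muscle fibres slow or leave the cycle as they mature.

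Library totals ranged from 10438537 to 16378164 counts (median 12915094.5), and the 52 genes held 0.692% to 1.68% of each. Levels are CPM, counts relative to library totals that were scaled by TMM over the 72 libraries, and a gene was called when edgeR's quasi-likelihood test gave a Benjamini-Hochberg adjusted p below 0.05 over all genes tested. TBX4, the hindlimb factor, was at 111 to 229 CPM in hindlimb and at up to 4.96 CPM in forelimb libraries. TBX5, the forelimb factor, was at up to 4.44 CPM in grouse and scale hindlimb, up to 66.1 CPM in muff hindlimb and 141 to 373 CPM in forelimb libraries. The labels do not say that libraries of a group came from separate embryos, so p-values measure the spread between these samples, which may be partly technical. Hindlimb and forelimb libraries of the same phenotype, stage and replicate number deviated together from their group means in 36 of 36 cases. At HH21, however, the limbs of muff numbers 2 and 4 had opposite levels of Z-linked genes (a log2 level of 0.21 in hindlimb and -0.46 in forelimb for number 2, and of -0.25 in hindlimb and 0.33 in forelimb for number 4), and the paired results at HH21 are given with and without them. Grouse forelimb number 2 at HH29 stood apart for a few genes described below.

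The clearest pattern was a fall with stage in both limbs. In hindlimb, 51 of the 52 genes fell at HH29 relative to HH21 and none rose, with a median log2 fold change of -0.997. In forelimb, 49 fell, 1 rose, and the median was -0.82. Across all genes tested, 34.6% were called lower and 36.8% higher in hindlimb, and 33.2% lower and 35.4% higher in forelimb, with medians of 0.02 in both limbs. In whole buds, a smaller share of cycling cells and less RNA per cycling cell cannot be told apart.

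The summed level of the 52 genes shows the size of the change. In hindlimb it was 15959 ± 1052 CPM at HH21, 11723 ± 943 at HH25 and 8206 ± 744 at HH29 (SD, n = 12 each). In forelimb it was 14823 ± 1155, 11158 ± 897 and 8683 ± 692 CPM at the same stages. The HH29 level was 51.4% of the HH21 level in hindlimb and 58.6% in forelimb, and the HH25 level was 73.5% in hindlimb and 75.3% in forelimb. The highest HH29 library, at 9089 CPM in hindlimb and 9464 CPM in forelimb, lay below the lowest HH25 library, at 10002 CPM in hindlimb and 9645 CPM in forelimb.

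**Figure D1:**
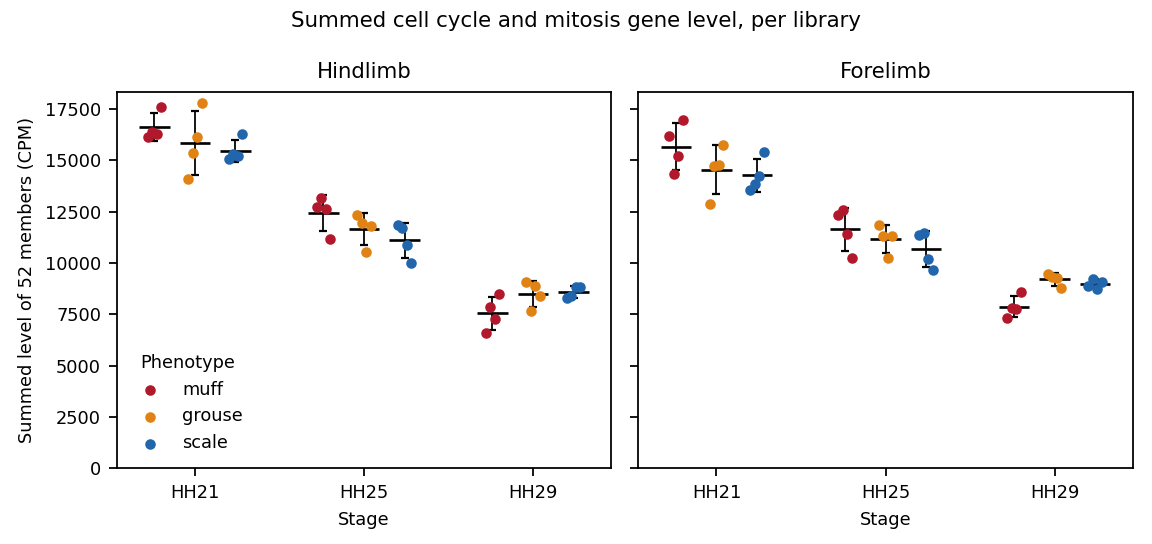
Summed level of the 52 genes in CPM (y axis, from 0) in each library, by stage, limb and phenotype (muff, grouse, scale, left to right). Points are libraries, and black bars give the mean ± SD of 4. The HH29 libraries sit between 6568 and 9464 CPM and the HH21 libraries between 12881 and 17771 CPM.

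Genes fell over both intervals. In hindlimb, 48 genes fell and none rose at HH25 relative to HH21 (background 25.1% lower and 26.4% higher), with a median of -0.48. At HH29 relative to HH25, 51 fell and none rose (background 27.2% lower and 27.1% higher), with a median of -0.53. In forelimb, the first interval gave 47 lower and 1 higher (background 27.8% and 28.1%, median -0.44) and the second 46 lower and none higher (background 23% and 23.4%, median -0.36). How the fall divided between the intervals differed with the replicate numbers. In hindlimb the medians of the first and second interval were -0.316 and -0.626 in replicates 1 and 2, and -0.578 and -0.402 in replicates 3 and 4. In forelimb they were -0.307 and -0.467 in replicates 1 and 2, and -0.568 and -0.275 in replicates 3 and 4. By edgeR's unadjusted p below 0.05, the genes higher or lower together numbered 49 and 51 in hindlimb and 49 and 46 in forelimb for the first and second interval. Over all genes they numbered 7114 of 12500 and 7540 of 12721 in hindlimb, and 7539 of 12487 and 6676 of 12715 in forelimb. DESeq2 also called no gene higher in the 3 hindlimb intervals or in the second forelimb interval. Comparing single libraries, all 12 HH29 libraries lay below all 12 HH21 libraries for 43 genes in hindlimb (background 9.52%) and 44 in forelimb (background 8.81%).

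CCND2 was the exception: it was the one gene not called lower in hindlimb at HH29 relative to HH21 and the one that rose in forelimb. CCND1 and CCND2 encode D-type cyclins, which pair with CDK4 and CDK6 and link growth signals to entry into the cycle, and CCNE2 encodes an E-type cyclin that drives entry into S phase. CCND2 had a median of 14.4 CPM in hindlimb at HH21 (range 9.07 to 19.7), 17.1 at HH25 (13.4 to 20.9) and 17.3 at HH29 (11.3 to 20.1). In forelimb its median was 14.2 CPM at HH21 (11.65 to 19.6), 18.45 at HH25 (15.3 to 25) and 19 at HH29 (16.5 to 24.15). The stages overlapped in both limbs. CCND2 rose in forelimb, by 0.31 ± 0.09 in log2 at HH25 (SE, adjusted p = 0.0070) and by 0.36 ± 0.09 at HH29 (adjusted p = 0.0016), both relative to HH21, while the hindlimb changes of 0.24 ± 0.11 and 0.22 ± 0.11 were not called (adjusted p = 0.059 and 0.096). With the Z level (the mean level of Z-linked genes in each library) as a covariate the forelimb calls were lost (0.235 at HH25, adjusted p = 0.0615, and 0.16 at HH29, adjusted p = 0.195), and the HH25 call was also lost without replicate 3 (0.21, adjusted p = 0.132). The Z level was above 0 in 2 of the 12 HH21 libraries, 6 of the 12 HH25 libraries and 7 of the 12 HH29 libraries of each limb. Among forelimb libraries below 0 it also rose, from -0.47 to -0.32 at HH21 to -0.21 to -0.08 at HH29. The covariate thus overlaps with stage, so this fit cannot tell a rise of CCND2 with stage from the mix of Z levels.

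CCND1 was not called over the first interval (0.06 ± 0.10 in hindlimb, adjusted p = 0.66, and -0.05 ± 0.07 in forelimb, adjusted p = 0.59) and fell over the second. Its median in hindlimb was 110.0 CPM at HH21 (range 55.1 to 137), 111 at HH25 (91.3 to 123) and 91.5 at HH29 (80.0 to 104). In forelimb it was 101.5 CPM at HH21 (80.4 to 128), 100.1 at HH25 (80.9 to 114) and 81.9 at HH29 (68.2 to 88.6). Ranges overlapped between all stages, and CCND1 was called lower at HH29 relative to HH25 in both limbs (-0.29 ± 0.05 in hindlimb, adjusted p = 1.3e-05, and -0.29 ± 0.04 in forelimb, adjusted p = 6.2e-06). CCNE2 fell by 1.08 ± 0.10 in log2 in hindlimb at HH29 relative to HH21 (adjusted p = 7.4e-10) and by 0.84 ± 0.09 in forelimb (adjusted p = 2.1e-08).

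The 8 genes of origin licensing and firing all fell in every stage comparison. CDC6 and CDT1 load the MCM helicase onto replication origins, GMNN (geminin) blocks CDT1 after S phase begins, and CDC45 joins MCM to form the active helicase. With all libraries in, CDC6 had the largest fitted change of the 52. This order turned when replicates were left out: its hindlimb change at HH29 relative to HH21 was -1.165 without replicate 1 and -1.182 without replicate 2, against -1.318 and -1.302 for the condensin gene NCAPG. It had a median of 22.5 CPM in hindlimb at HH21 (range 14.4 to 46.9), 15.2 at HH25 (10.1 to 21.7) and 10.7 at HH29 (7.21 to 14.6). Its HH29 and HH21 ranges in hindlimb overlapped slightly, and the change was -1.35 ± 0.18 (adjusted p = 3.6e-07). In forelimb its median was 21.4 CPM at HH21 (14.2 to 32.1), 14.8 at HH25 (9.34 to 20.7) and 9.55 at HH29 (0.897 to 13.55), a change of -1.19 ± 0.24 (adjusted p = 9.2e-05). CDC6 was at 0.897 CPM in grouse forelimb number 2 at HH29, against 12.1 to 13.5 CPM in the other 3 libraries of that group, and without number 2 libraries the forelimb change was -0.96 (adjusted p = 2.5e-05), smaller than that of NCAPG (-1.109). Over single forelimb intervals the CDC6 calls were unsteady: the first was lost without replicate 1 (adjusted p = 0.062) or 2 (adjusted p = 0.087), and the second (-0.60 ± 0.24, adjusted p = 0.048) without replicate 1 (adjusted p = 0.063), 3 (adjusted p = 0.149) or 4 (adjusted p = 0.233).

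MCM6, a helicase subunit, had the smallest change among the licensing genes, with a median of 401 CPM in hindlimb at HH21 (range 319 to 462), 322 at HH25 (281 to 363) and 244 at HH29 (210.0 to 278). No HH29 library reached the lowest HH21 library. The change was -0.73 ± 0.05 in hindlimb (adjusted p = 4.0e-12) and -0.56 ± 0.05 in forelimb (adjusted p = 7.5e-11). MCM2, MCM3 and MCM5, which encode further subunits of that helicase, changed by -0.78, -0.83 and -0.91 in hindlimb and by -0.63, -0.63 and -0.67 in forelimb. A row that the authors' annotation names as the DNA replication licensing factor mcm4, noticed after the values had been seen, was not a member under the rule. It averaged 353 ± 33.3 CPM at HH21, 259 ± 33.3 at HH25 and 186 ± 14.46 at HH29 in hindlimb (SD, n = 12 each).

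The 4 genes of DNA synthesis and maintenance also fell in every stage comparison. RRM2, the regulated subunit of the ribonucleotide reductase that makes DNA building blocks, had a median of 456.5 CPM in hindlimb at HH21 (range 340.5 to 539), 344 at HH25 (259.9 to 422) and 212 at HH29 (165 to 248). The HH29 and HH21 libraries did not overlap, and the change was -1.10 ± 0.07 in hindlimb (adjusted p = 2.8e-13) and -0.85 ± 0.05 in forelimb (adjusted p = 1.3e-12). PCNA, the sliding clamp of DNA polymerases, changed least of the 4, by -0.81 ± 0.05 in hindlimb (adjusted p = 5.0e-13) and by -0.68 ± 0.04 in forelimb (adjusted p = 4.0e-14). UHRF1, which helps to copy DNA methylation onto new strands, changed by -0.92 in hindlimb and -0.72 in forelimb.

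Among the 8 mitotic cyclins and kinases, all fell in hindlimb and 7 of 8 in forelimb at HH29 relative to HH21. CCNB2, a B-type cyclin that activates CDK1 at the start of mitosis, had a median of 389 CPM in hindlimb at HH21 (range 317 to 445.5), 268.5 at HH25 (234 to 300.1) and 185 at HH29 (155 to 210.1). Each stage lay wholly below the one before it. The change at HH29 relative to HH21 was -1.12 ± 0.05 in hindlimb (adjusted p = 2.5e-15) and -0.94 ± 0.05 in forelimb (adjusted p = 9.5e-15). CDK1 itself changed by -0.92 in hindlimb and -0.82 in forelimb, and AURKA, a kinase of the centrosome and spindle poles, by -1.09 in hindlimb and -0.91 in forelimb. CCNB3, a further B-type cyclin, had the smallest called change of the 8 in forelimb, -0.48 ± 0.05 (adjusted p = 1.4e-08), beside -0.69 ± 0.07 in hindlimb (adjusted p = 1.3e-09).

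MELK, a kinase that is high in dividing cells, was not called in forelimb (-0.33 ± 0.19, adjusted p = 0.11) and fell by 0.52 ± 0.17 in log2 in hindlimb (adjusted p = 0.0083). Without replicate 2 the forelimb change was -0.58 and was called (adjusted p = 0.0206). Its values were widely spread, with a median of 146 CPM in hindlimb at HH21 (range 125 to 291), 148 at HH25 (91.5 to 215.5) and 128 at HH29 (56.4 to 153). MELK and SMC2 are the members that RefSeq places on the Z chromosome in assembly bColLiv1.pat.W.v2, and male birds carry a pair of Z chromosomes where females carry a single Z. Within groups, the correlation with the level of 506 other Z-linked genes was 0.97 for MELK and 0.96 for SMC2, over 72 libraries that share their groups' means and their depth. With the Z level as a covariate, MELK changed by -1.26 in hindlimb (adjusted p = 1.9e-11) and -1.15 in forelimb (adjusted p = 4.5e-13), and SMC2 by -1.31 in hindlimb (adjusted p = 2.0e-12) and -1.08 in forelimb (adjusted p = 1.2e-11). The Z level itself rose with stage: hindlimb libraries below 0 were at -0.65 to -0.25 at HH21 and -0.20 to -0.06 at HH29. Those above 0 were at 0.21 to 0.28 and 0.42 to 0.57. The covariate thus overlaps with stage, and the fitted changes are not the fall at equal Z dosage. In hindlimb libraries below 0, MELK was at 125 to 162 CPM at HH21 and 56.4 to 87.2 at HH29. SMC2 was at 271 to 373 and 128 to 166.5 CPM in them. The labels give no sex.

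All 11 kinetochore and spindle checkpoint genes fell at HH29 relative to HH21 in both limbs. These genes attach chromosomes to the spindle and hold back anaphase until every attachment is made. MAD2L1, the checkpoint protein that restrains CDC20, had a median of 199 CPM in hindlimb at HH21 (range 166 to 224), 124 at HH25 (106 to 145) and 88.4 at HH29 (77.5 to 102). Each stage lay wholly below the one before. The change was -1.16 ± 0.05 in hindlimb (adjusted p = 2.2e-16) and -0.98 ± 0.06 in forelimb (adjusted p = 8.2e-13).

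CENPE, a kinetochore motor, had a median of 343 CPM in hindlimb at HH21 (range 227 to 453), 235 at HH25 (151 to 296.5) and 163 at HH29 (122 to 177), and changed by -1.15 ± 0.09 (adjusted p = 7.2e-11). TTK, the kinase that starts checkpoint signalling, changed by -1.13 ± 0.06 in hindlimb (adjusted p = 2.3e-14) and by -0.97 ± 0.06 in forelimb (adjusted p = 1.8e-12). BUB3 had the smallest change of this group, -0.67 ± 0.04 in hindlimb (adjusted p = 1.1e-13) and -0.49 ± 0.04 in forelimb (adjusted p = 3.4e-11). CENPF, a kinetochore protein, was not called over the second forelimb interval (-0.13 ± 0.09, adjusted p = 0.25).

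Of the 5 chromosome structure genes, all fell in hindlimb and 4 of 5 in forelimb, with SMC2, a further condensin subunit, not called (-0.26 ± 0.19, adjusted p = 0.21, and -0.49, adjusted p = 0.0474, without replicate 2). SMC2 had a median of 321 CPM in hindlimb at HH21 (range 271 to 534.5), 299 at HH25 (198 to 479) and 266 at HH29 (128 to 338), and the stages overlapped. NCAPG, a condensin subunit that compacts mitotic chromosomes, had a median of 335.5 CPM in hindlimb at HH21 (range 294 to 437), 221 at HH25 (179.7 to 274) and 137 at HH29 (103 to 168.5). No library of HH29 overlapped with HH25 or HH21. The change at HH29 relative to HH21 was -1.29 ± 0.06 in hindlimb (adjusted p = 1.0e-14) and -1.06 ± 0.05 in forelimb (adjusted p = 7.0e-15). MKI67, the Ki-67 protein used to stain cycling cells, had a median of 644.5 CPM in hindlimb at HH21 (range 411 to 841), 447 at HH25 (328 to 592) and 276 at HH29 (203.5 to 311). It changed by -1.25 ± 0.10 in hindlimb (adjusted p = 4.2e-11) and by -0.94 ± 0.07 in forelimb (adjusted p = 4.9e-11).

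The 9 spindle motors and microtubule proteins all fell in both limbs at HH29 relative to HH21. DLGAP5, which bundles microtubules at kinetochores, had a median of 380.2 CPM in hindlimb at HH21 (range 331 to 437.5), 245 at HH25 (203 to 332) and 168 at HH29 (131 to 198). HH29 lay wholly below HH25. It changed by -1.204 ± 0.06 in hindlimb (adjusted p = 6.0e-15) and by -0.96 ± 0.05 in forelimb (adjusted p = 1.5e-13), and HMMR, a spindle protein, had the largest forelimb change of this group, -0.97 ± 0.07 (adjusted p = 7.6e-12). CKAP5, which speeds microtubule growth in and outside mitosis, changed least, by -0.72 ± 0.08 in hindlimb (adjusted p = 8.3e-09) and -0.52 ± 0.06 in forelimb (adjusted p = 2.1e-08). Over the second forelimb interval its change was -0.04 ± 0.06 (adjusted p = 0.65).

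The 4 cytokinesis genes fell at HH29 relative to HH21 in both limbs. ECT2, which acts at the site of cleavage, had a median of 223 CPM in hindlimb at HH21 (range 149 to 282), 133.5 at HH25 (113 to 160) and 101 at HH29 (73.5 to 115). It changed by -1.22 ± 0.09 in hindlimb (adjusted p = 8.5e-12) and by -1.05 ± 0.07 in forelimb (adjusted p = 8.4e-13). PRC1, which bundles the midzone of the spindle, changed by -0.48 ± 0.08 in hindlimb (adjusted p = 6.9e-06) and -0.40 ± 0.08 in forelimb (adjusted p = 0.00015), and its first forelimb interval was not called (-0.11 ± 0.05, adjusted p = 0.066). ANLN, a scaffold of the contractile ring, was not called over the second forelimb interval (-0.10 ± 0.05, adjusted p = 0.14).

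**Figure D2:**
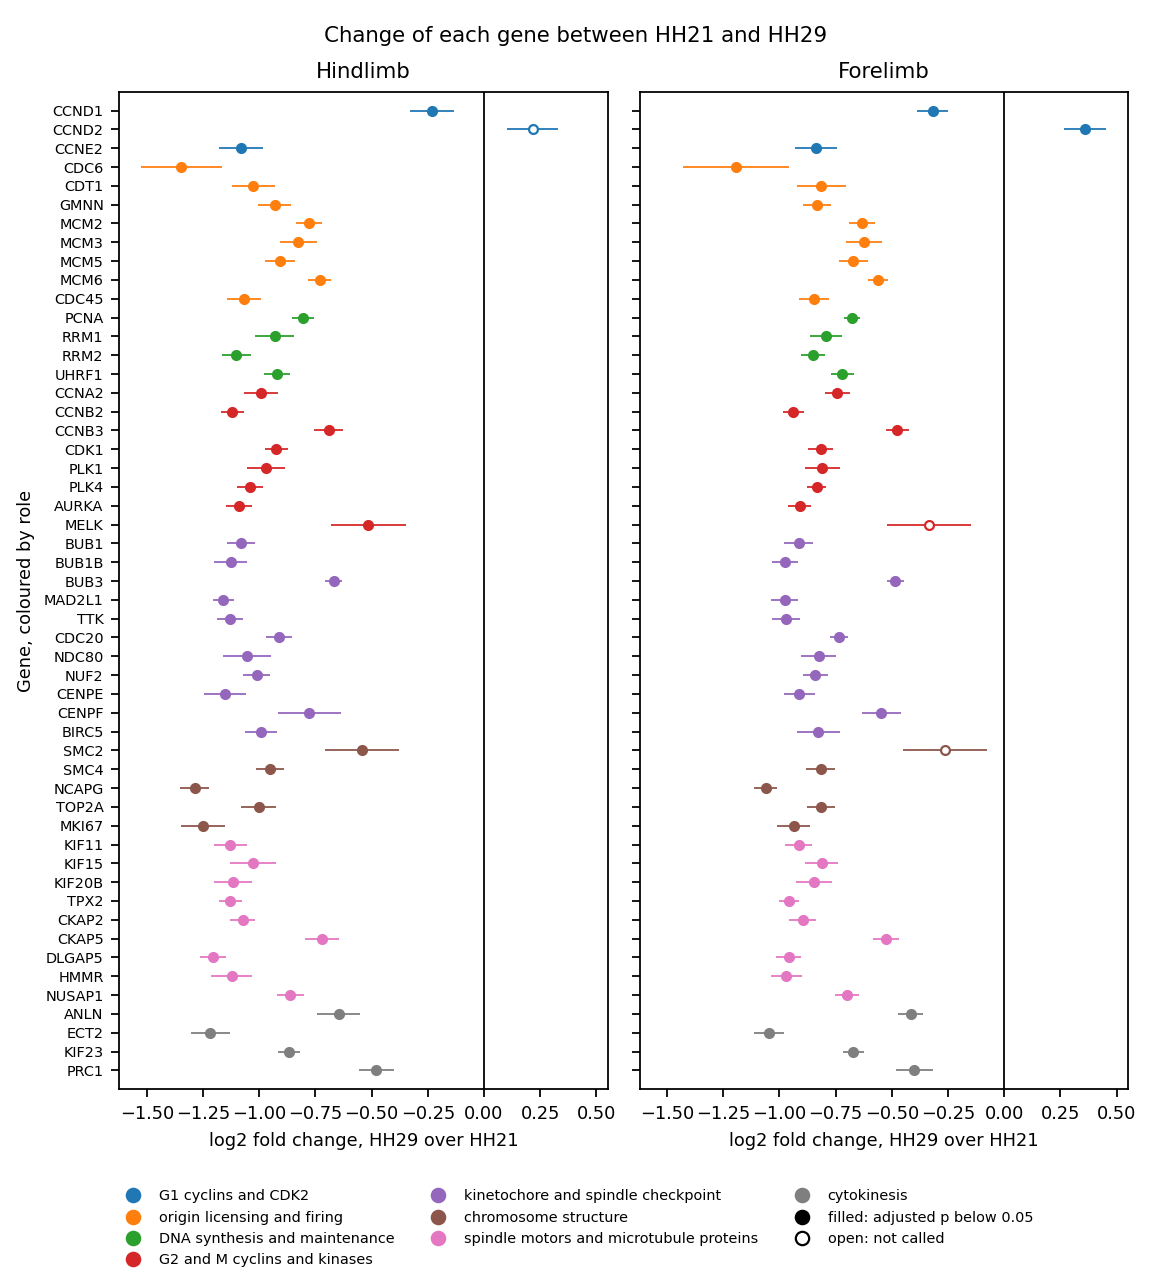
Log2 fold change of each gene at HH29 over HH21 (x axis), in hindlimb (left) and forelimb (right), with 12 libraries per stage. Points are coloured by role, bars are standard errors, filled points were called and open points were not. CCND2 is the one gene to the right of 0 in both limbs, and CDC6 lies furthest left in both with all libraries in, though not in forelimb without number 2, where its change was -0.96.

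Genes of the same processes outside the 52 moved with them. The background at HH29 relative to HH21 was 34.6% of all genes lower and 36.8% higher in hindlimb, and 33.2% and 35.4% in forelimb. Of 61 measured mitosis genes, 60 fell in hindlimb and 58 in forelimb at HH29 relative to HH21 and none rose (medians -0.83 and -0.68). Of 43 replication genes, 42 fell in hindlimb and 41 in forelimb and none rose (medians -0.69 and -0.53). BRCA1, a repair gene best known from breast cancer, averaged 151 ± 26.04 CPM at HH21, 92.7 ± 9.27 at HH25 and 60.9 ± 7.60 at HH29 in hindlimb (SD, n = 12 each), a change of -1.31 ± 0.09 at HH29 relative to HH21 (adjusted p = 7.2e-12). EXO1, an exonuclease of DNA repair, changed most among the replication genes in hindlimb, by -1.54 ± 0.07 (adjusted p = 5.2e-15). Of 33 further cycle regulators, 28 fell and 1 rose in hindlimb, and 27 fell and 1 rose in forelimb. CCNA1, an A-type cyclin best known from the germ line, changed most in hindlimb, by -2.12 ± 0.17 (adjusted p = 6.1e-11), but was at only 4.36 ± 1.24 CPM at HH21 (SD, n = 12). The S-phase kinase gene CDC7 changed by -1.34 ± 0.06 (adjusted p = 4.4e-15). The gene that rose in hindlimb was listed as CCNB1, the name of a B-type cyclin, at 6.69 ± 2.19 CPM at HH21, 7.70 ± 2.39 at HH25 and 9.31 ± 3.86 at HH29 (SD, n = 12 each), with a change of 0.49 ± 0.21 (adjusted p = 0.042).

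Cell cycle inhibitors did not move as a block. Of 16 tested, 10 rose and 4 fell in hindlimb, and 7 rose and 5 fell in forelimb. The shares over all genes were 36.8% higher and 34.6% lower in hindlimb, and 35.4% and 33.2% in forelimb. GADD45G, a stress-induced gene that restrains the cycle, averaged 5.52 ± 2.37 CPM at HH21, 20.3 ± 9.41 at HH25 and 23.5 ± 7.81 at HH29 in hindlimb (SD, n = 12 each), a change of 2.10 ± 0.21 at HH29 relative to HH21 (adjusted p = 3.5e-09). CDKN1A, which encodes the CDK inhibitor p21, rose by 2.51 ± 0.41 (adjusted p = 7.8e-06) but stayed at 1.07 ± 0.541 CPM at HH29. CDKN3, a phosphatase gene that is itself high in mitotic cells, fell by 0.75 ± 0.07 in log2 (adjusted p = 1.4e-09), as did the retinoblastoma family genes RB1, by 0.49 ± 0.07 (adjusted p = 1.8e-06), and RBL1, by 0.36 ± 0.05 (adjusted p = 5.0e-07).

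Markers of maturing tissue rose over the same stages. Of 15 measured cartilage genes, 14 rose in hindlimb and 15 in forelimb at HH29 relative to HH21, and of 17 measured muscle genes, 16 rose in hindlimb and 15 in forelimb, with 1 lower in each. Among all genes, 36.8% were called higher in hindlimb and 35.4% in forelimb. The summed muscle level was 25.4 to 66.5 CPM at HH21, 236 to 1642 at HH25 and 2230 to 3349 at HH29 in hindlimb libraries. The summed cartilage level was 232 to 605 CPM, 1039 to 2264 and 1527 to 3938 at those stages. Their part in the fall of the cell cycle genes was not tested.

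**Figure D3:**
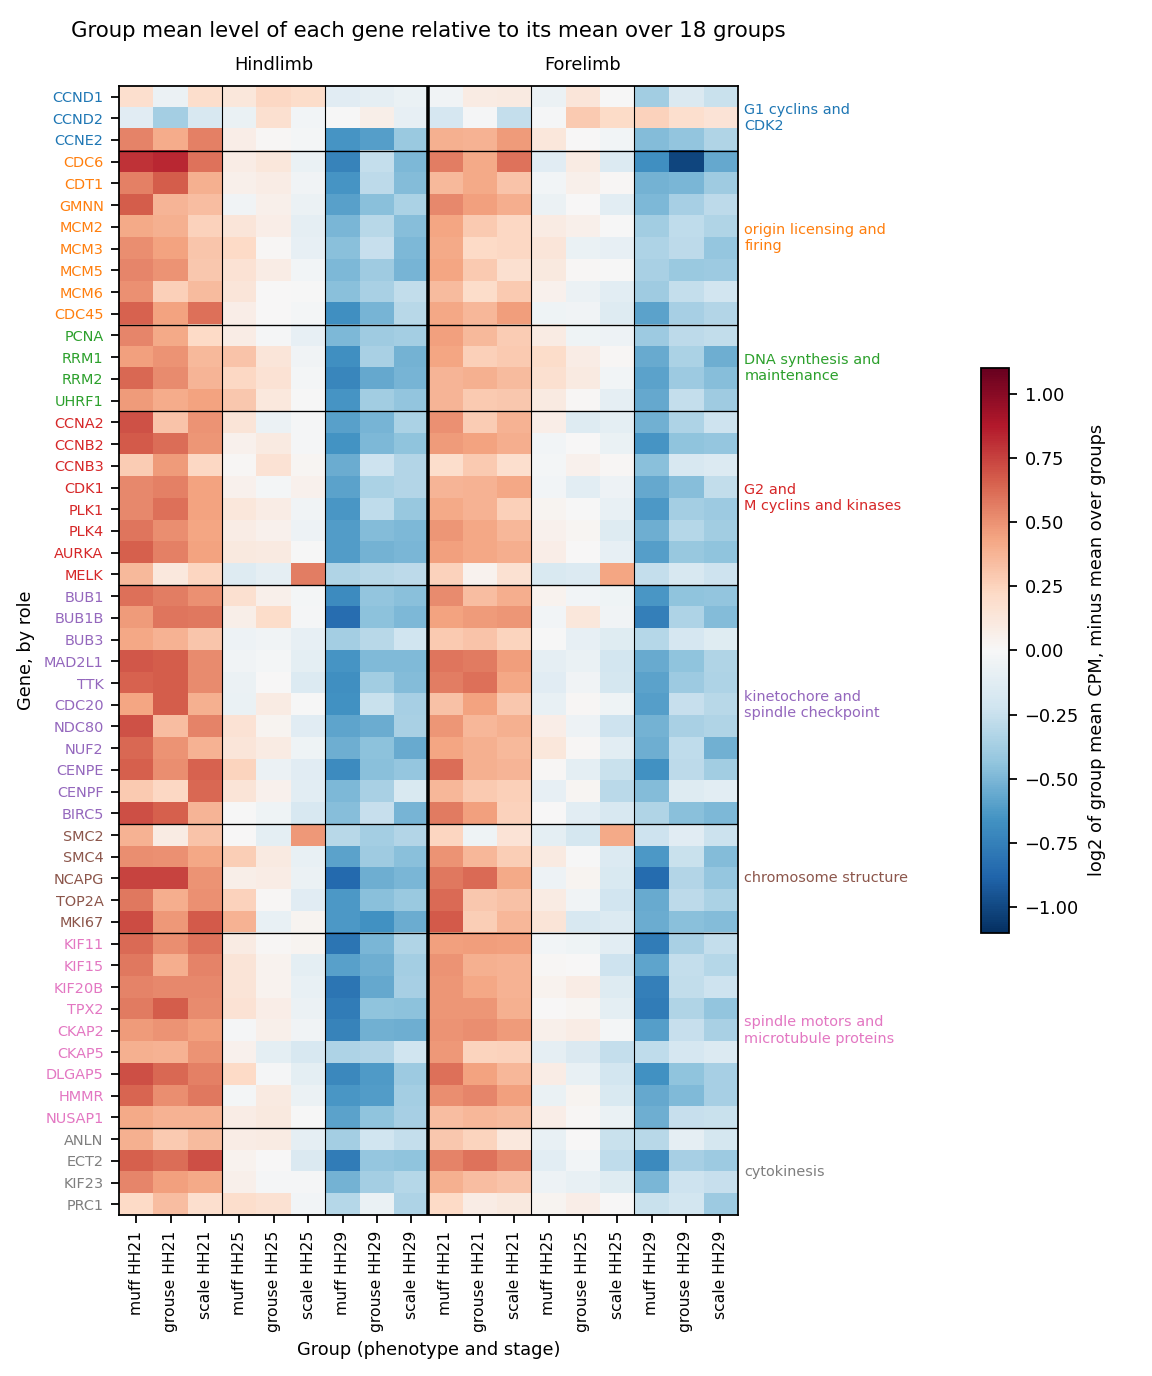
Mean level of each of the 52 genes (rows, by role) in each of the 18 groups (columns; muff, grouse and scale within each stage, hindlimb left and forelimb right), as log2 CPM minus the gene's mean over groups. Red is above and blue below that mean. Most rows turn from red at HH21 to blue at HH29, and the rows of CCND1, CCND2, MELK and SMC2 are the least regular.

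The order of stages was repeated within phenotypes. Group means fell at both steps for 51 genes in muff, 50 in grouse and 48 in scale hindlimb, and for 51 in muff, 49 in grouse and 45 in scale forelimb. The share of all genes that fell at both steps is not given here. CCND2 was an exception in all 6 cases, and CCND1 in 3 of 6. Scale forelimb had the most exceptions, which beside CCND2 were MELK, SMC2, BUB3, CENPF, CKAP5 and ANLN. At HH29 relative to HH21, 49 genes fell in muff hindlimb (background 28.2%, median -1.195), 48 in grouse (23.4%, median -0.90) and 48 in scale (21.9%, median -0.88). In forelimb the counts were 49 in muff (background 27.1%, median -0.98), 47 in grouse (21%, median -0.70) and 48 in scale (21%, median -0.70). Replicates 1 and 2 and replicates 3 and 4 differed within stages: the hindlimb sum averaged 16538 CPM in replicates 3 and 4 and 15380 in replicates 1 and 2 at HH21, but 11165 CPM in replicates 3 and 4 and 12281 CPM in replicates 1 and 2 at HH25. Within each of these parts, 51 of 52 genes were lower at HH29 than at HH21 in both limbs. The share of all genes lower within these parts is not given here.

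The comparison of limbs asked whether hindlimb and forelimb buds of the same age differ in these genes. Differences were small and their direction turned with stage: the median log2 difference, hindlimb over forelimb, was 0.11 at HH21, 0.07 at HH25 and -0.08 at HH29, against 0.01, 0.00 and 0.00 over all genes. Without pairing the limbs, 1 gene was higher and none lower at HH21 (background 2.16% and 3.95%), 1 higher and none lower at HH25 (3.47% and 4.26%), and 1 higher and 1 lower at HH29 (4.04% and 4.1%). These unpaired counts lay near or below the shares over all genes. Unadjusted p was below 0.05 for 15, 8 and 8 genes at the 3 stages, against 1838 of 12273, 2095 of 12511 and 2153 of 12790 over all genes. DESeq2 called 3 at HH21, 1 at HH25 and 2 at HH29 (shares over all genes under DESeq2 are not given here). With hindlimb and forelimb of the same number kept as pairs, as their shared deviations allow, the same comparisons called 27 higher and none lower at HH21 (background 7.76% and 8.73%), 32 higher and 1 lower at HH25 (14% and 14%), and 1 higher and 10 lower at HH29 (8.3% and 8.78%). The HH29 count was unsteady, with 3 lower without replicate 1 or 4, 5 without replicate 3 and 15 without replicate 2. In the authors' deposited tables of scale hindlimb and forelimb, 1 of 54 gene features with an adjusted p-value, that of CCND1, was below 0.05 at HH25 (4.05% of all features). None was at HH21 (0 of 54, against 1.89%) or HH29 (0 of 53, against 3.22%).

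The summed level within pairs gives the same picture without a test. Hindlimb was above forelimb in 11 of 12 pairs at HH21, with a log2 difference of -0.004 to 0.196 and a median of 0.1115. Without muff numbers 2 and 4 it was above in 9 of 10, with differences of -0.004 to 0.174 and the same median. At HH25 it was above in 12 of 12 pairs, by 0.031 to 0.15 (median 0.0625). At HH29 it was above in 2 of 12, with differences of -0.284 to 0.012 (median -0.062). The lowest value, -0.284, was grouse number 2, with 7646 CPM in hindlimb and 9309 CPM in forelimb.

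**Figure D4:**
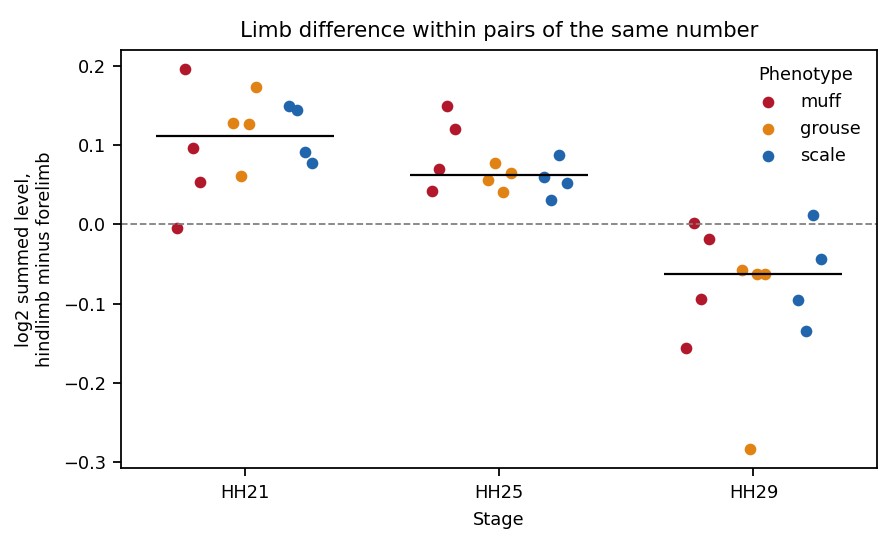
Log2 difference in the summed level of the 52 genes, hindlimb minus forelimb (y axis), for each pair of limbs with the same phenotype, stage and number (points, coloured by phenotype). Black lines are medians over 12 pairs: 0.1115 at HH21, with or without muff numbers 2 and 4, 0.0625 at HH25 and -0.062 at HH29.

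At HH21, TPX2, a spindle assembly factor, was higher in hindlimb in 12 of 12 pairs, by 0.032 to 0.306 in log2, and was called with or without the pairs (0.13 ± 0.04, adjusted p = 0.046 without pairs, and 0.13 ± 0.02, adjusted p = 0.0017 with them). Without muff numbers 2 and 4 it was higher in 10 of 10 pairs and stayed called (0.12 ± 0.03, adjusted p = 0.016 with pairs). Without pairs its call was lost when any 1 replicate was left out, by library totals or with no filter (0.099 to 0.138 and adjusted p = 0.00115 to 0.287 over all alternatives). MKI67 was higher in 10 of 12 pairs, and its change of 0.19 ± 0.04 was called with the pairs (adjusted p = 0.0061). Without muff numbers 2 and 4 it was higher in 8 of 10 and the paired call was lost (0.17 ± 0.05, adjusted p = 0.059). The paired calls at HH21 included 8 of 11 kinetochore and checkpoint genes, 5 of 8 licensing genes, 5 of 8 mitotic cyclins and kinases and none of the 3 G1 cyclins. Leaving out muff numbers 2 and 4 gave 14 higher and none lower at HH21, with 2 of 11 kinetochore and checkpoint genes, 3 of 8 licensing genes, 3 of 8 mitotic cyclins and kinases and none of the 3 G1 cyclins, and leaving out any one number gave 7 to 30, with 7 when number 2 was left out. Shares over all genes under these reduced fits are not given here, and the 7.76% and 8.73% above belong to the paired fit with all libraries.

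At HH25, CCND1 was higher in hindlimb in 12 of 12 pairs, by 0.006 to 0.327 in log2 (0.17 ± 0.05, adjusted p = 0.020 without pairs, lost without replicate 2, 3 or 4), while CCND2 was lower with the pairs (-0.14 ± 0.04, adjusted p = 0.021). The paired calls also took in all 4 cytokinesis genes and all 5 chromosome structure genes, each higher in hindlimb. At HH29 CCND1 was still higher, in 11 of 12 pairs (0.17 ± 0.04, adjusted p = 0.015 without pairs, lost without replicate 1, 3 or 4). CKAP2, a microtubule protein of the spindle, was lower in hindlimb in 12 of 12 pairs, by 0.022 to 0.555, and was called with or without the pairs (-0.19 ± 0.04, adjusted p = 0.0027 without pairs). PCNA was lower in 12 of 12 pairs at HH29, with a paired change of -0.09 ± 0.02 (adjusted p = 0.0069).

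The test of the difference itself asked whether the change with stage differed between limbs. Without pairs, edgeR called none of the 52 at HH25 relative to HH21 (background 0.749% lower and 1.05% higher, 0 members at unadjusted p below 0.05). At HH29 relative to HH25 it also called none (background 0.427% and 0.823%, 10 members at unadjusted p below 0.05), and at HH29 relative to HH21 it called 1 lower (background 1.86% and 2.85%, 23 members at unadjusted p below 0.05). DESeq2 was not run for this test, and the adjusted shares given here are no background for the unadjusted counts. The gene called was BUB3, whose change at HH29 relative to HH21 was lower in hindlimb (-0.67) than in forelimb (-0.49), a difference of -0.18 ± 0.05 in log2 (adjusted p = 0.023). With 1 call among 52, the members lay near the share called lower over all genes. Leaving out any 1 replicate ended the call (-0.163 to -0.195). With pairs, none was called for HH25 over HH21 (8 at unadjusted p below 0.05), 28 were lower for HH29 over HH25 (background 4.39%, median -0.14) and 32 for HH29 over HH21 (background 6.71%, median -0.18), and none was higher. Leaving out any 1 replicate gave 13 to 23 for HH29 over HH25, with 13 without replicate 1 and 14 without replicate 3, and 18 to 26 for HH29 over HH21, with 18 without replicate 3. Without muff numbers 2 and 4 at HH21 the last count was 21. Shares over all genes under these reduced fits are not given here.

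Some markers of other tissues were also called between limbs. Unpaired shares of all genes called higher and lower were 2.16% and 3.95% for HH21, 3.47% and 4.26% for HH25, 4.04% and 4.1% for HH29. The median of the muscle genes, hindlimb over forelimb, was -0.55 at HH21 (13 genes tested, 3 called lower), -0.33 at HH25 (17 tested, 1 higher) and -0.06 at HH29 (17 tested, 1 higher and 1 lower). The medians of the cartilage genes were -0.14, -0.06 and -0.07. Of these, HH21 had 1 of 13 lower, HH25 had 1 higher and 1 lower of 15, and HH29 had none called. Among 8 limb mesenchyme genes, HH21 had 1 call each way, HH25 had 4 lower and 1 higher, and HH29 had 2 each way. The 5 macrophage and leukocyte genes gave no call at HH21, 2 higher at HH25 and 1 higher at HH29. Among 5 nerve and neural crest genes, HH21 had 1 lower, HH25 had 1 each way, and HH29 had none called. The 9 endothelium genes had medians of -0.04 at HH21, 0.13 at HH25, where all 9 lay above 0 and 2 were called higher, and 0.23 at HH29, with 2 called higher. The 6 ectoderm genes had medians of -0.02, -0.15 and -0.19, and all 6 lay below 0 at HH25 and at HH29, with 1 called lower at HH29. Within groups, over the 72 libraries, the mean level of the 52 genes had a correlation of -0.65 with the muscle list, -0.41 with the macrophage and leukocyte list and -0.33 with the cartilage list. These libraries share their scaling, and the part of these tissues in the limb difference was not tested.

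The comparisons of phenotypes asked whether the buds of feather-footed pigeons differ from those of scale pigeons and from each other. Calls were found at HH29 alone, always lower in muff, in 4 of 18 comparisons. Muff hindlimb against scale hindlimb gave 1 call (background 0.43% lower and 0.597% higher, median -0.19), muff forelimb against scale forelimb 1 (0.222% and 0.159%, median -0.18), muff hindlimb against grouse hindlimb 1 (1.27% and 2.31%, median -0.16) and muff forelimb against grouse forelimb 8 (1.86% and 2.38%, median -0.18). No gene was called between grouse and scale in any of 6 comparisons by edgeR or DESeq2 on counts summed per gene, with 2 to 4 genes at unadjusted p below 0.05 and medians of -0.01 to 0.12. Over all genes, 921 to 1478 had an unadjusted p below 0.05 in edgeR in these comparisons. By adjusted p at HH29, edgeR called 0.135% of all genes higher and 0.167% lower in grouse than in scale hindlimb. In forelimb at HH29 it called 0.0238% higher and 0.0397% lower. At HH21 and HH25 the shares were 0% to 0.178%. The absence of calls lies near these shares and does not show that the genes are alike in grouse and scale. The authors' deposited tables of grouse and scale hindlimb did list members below an adjusted p-value of 0.05. These were BIRC5, CCNB3 and CDC20 at HH21 (3 of 53 gene features, against 7.78% of all features). At HH25 they were PLK1, RRM1 and MCM2 (3 of 53, against 3.45%), and at HH29 there were 0 of 54 (1.44%).

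KIF11, the motor that pushes spindle poles apart, was the gene called against scale in both limbs. In hindlimb at HH29 it had 189, 216, 186 and 238 CPM in muff libraries, against 286, 278, 284 and 298 CPM in scale libraries. In forelimb it had 209, 205, 203 and 228 CPM in muff libraries, against 307, 321, 282 and 292 CPM in scale libraries. The phenotypes did not overlap in either limb, and the changes were -0.45 ± 0.09 in hindlimb (adjusted p = 0.038) and -0.50 ± 0.10 in forelimb (adjusted p = 0.044). Limb libraries of the same number deviated together, so the 2 limbs are not independent and the forelimb call is no separate repeat. The hindlimb call was lost without muff replicate 1 or 3, any 1 scale replicate or grouse replicate 3 or 4 (-0.405 to -0.466), and the forelimb call without any 1 library other than grouse replicate 2 or 4 (-0.46 to -0.532). Both calls were also lost with a term for each replicate number, which left no member called against scale at HH29.

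CDC20, the activator of the complex that triggers anaphase, was the gene called between muff and grouse in both limbs. In hindlimb it was the 1 call among 52, near the 1.27% called lower over all genes. In hindlimb it had 143, 169, 166 and 199 CPM in muff libraries, against 230.4, 208, 246 and 215 CPM in grouse libraries. In forelimb it had 154, 176, 174 and 198 CPM in muff libraries, against 233.5, 209, 233 and 216 CPM in grouse libraries. The groups did not overlap, and the changes were -0.41 ± 0.10 in hindlimb (adjusted p = 0.038) and -0.33 ± 0.08 in forelimb (adjusted p = 0.038). As for KIF11, the 2 limbs are not independent. The hindlimb call was lost without muff replicate 1, 2 or 3 or grouse replicate 1, 3 or 4 (-0.331 to -0.431), and the forelimb call without any of these 6 or scale replicate 2, 3 or 4 (-0.272 to -0.344).

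The forelimb comparison of muff and grouse also called NCAPG, TPX2, CENPE, KIF11, CKAP2, NUSAP1 and KIF20B, 5 of the 8 being spindle motors or microtubule proteins. Several of these calls were unsteady. Of 19 alternatives, NCAPG was called in 18, TPX2 in 15, CENPE in 14 and KIF11 in 12. CKAP2 was called in 10, CDC20 and KIF20B in 8 each and NUSAP1 in 5. NCAPG had 115, 119, 120.5 and 126 CPM in muff forelimb libraries, against 161, 213, 170.1 and 152 CPM in grouse forelimb libraries, without overlap, and the change of -0.52 ± 0.09 (adjusted p = 0.015) was the largest. TPX2 had 158, 176, 158 and 200 CPM in muff, against 239.7, 237, 239.6 and 217 CPM in grouse (-0.42 ± 0.08, adjusted p = 0.018). CENPE was at 134 to 152 CPM in muff, against 174 to 203 CPM in grouse, and the remaining 4 had changes of -0.27 to -0.47. KIF20B, a kinesin of late mitosis and cytokinesis, was at 84.5 to 104 CPM in muff, against 118 to 164 CPM in grouse.

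**Figure D5:**
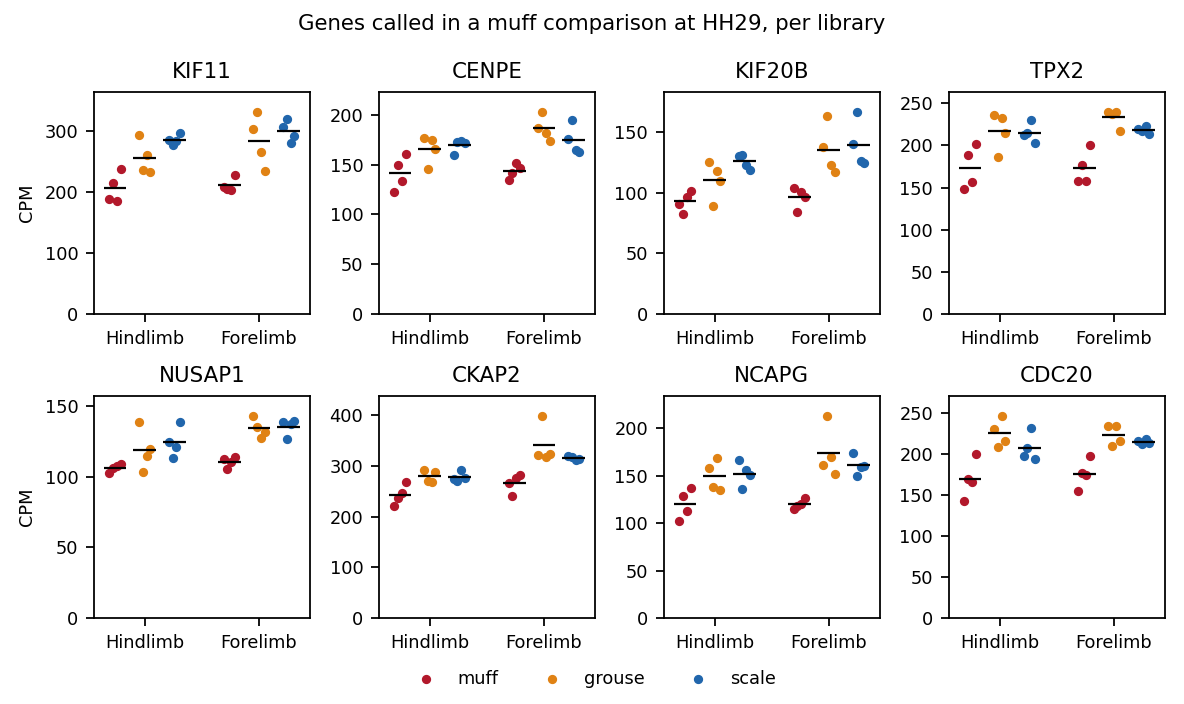
CPM (y axes, from 0) of the 8 genes called in a muff comparison at HH29, in each hindlimb and forelimb library, for muff, grouse and scale from left to right. Points are libraries and lines are means of 4. Muff libraries of KIF11 lie between 186 and 238 CPM and scale libraries between 278 and 321 CPM.

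Leaving out single libraries gave 0 to 9 calls for muff against grouse in forelimb, 0 without muff replicate 3 and 1 without muff replicate 1 or grouse replicate 1 or 3, while DESeq2 gave 17. A term for each replicate number gave 3. Shares over all genes under these fits are not given here, so no excess is read from these counts. The summed level at HH29 was 7542 ± 815 CPM in muff hindlimb, 8494 ± 636 in grouse and 8582 ± 271 in scale, and 7876 ± 529 CPM in muff forelimb, 9192 ± 306 in grouse and 8981 ± 226 in scale (SD, n = 4 each). All 4 muff forelimb libraries, at up to 8591 CPM, lay below all grouse and scale forelimb libraries, which began at 8729 CPM. Muff hindlimb libraries overlapped with both. Outside the 52, 7 of 61 mitosis genes and 6 of 43 replication genes were called lower, and none higher, in muff forelimb against grouse forelimb at HH29, with medians of -0.24 and -0.20. The summed muscle level at HH29 was 2913 to 3349 CPM in muff hindlimb, against 2230 to 2805 in grouse and 2444 to 3314 in scale, and 2997 to 3506 CPM in muff forelimb, against 2081 to 3132 in grouse and 2960 to 3328 in scale. The red blood cell level, summed over 3 measured genes of 14 listed, was 606.2 to 904.1 CPM in muff hindlimb, against 274.3 to 509.8 in grouse and 318.1 to 676.2 in scale. In forelimb it was 630.6 to 690.0 CPM in muff, against 245.7 to 589.5 in grouse and 194.8 to 538.3 in scale. Muff lay above both other phenotypes without overlap in forelimb, and above grouse in hindlimb. The part of muscle and of blood in the muff difference was not tested.

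At the earlier stages the medians lay on the other side. Muff was above scale by a median of 0.11 at HH21 and 0.15 at HH25 in hindlimb, and by 0.10 and 0.12 in forelimb. At HH25 every scale library had a Z level above 0 (0.27 to 0.47). In muff only number 1 did (0.37 in hindlimb and 0.39 in forelimb), and in grouse only number 4 (0.31 in hindlimb and 0.26 in forelimb). Comparisons with scale at HH25 thus also compare unlike mixes of Z levels. No gene was called by edgeR in the 12 comparisons at HH21 and HH25. Backgrounds for muff against scale were 0.0584% higher and 0.075% lower in hindlimb at HH21, 0.389% and 0.608% in hindlimb at HH25, 0.108% and 0.274% in forelimb at HH21, and 0.0894% and 0.163% in forelimb at HH25. For grouse against scale they were 0% and 0%, 0.0811% and 0.178%, 0.0664% and 0.0581%, and 0.0732% and 0.146% in the same order. For muff against grouse they were 0.0667% and 0.133%, 0.268% and 0.333%, 0.415% and 0.672%, and 0.236% and 0.252%. For muff against scale at HH25 in hindlimb, 15 genes had an unadjusted p below 0.05, against 2157 of 12326 over all genes. DESeq2 called 6, all higher in muff, and a term for replicates 1 and 2 against 3 and 4 gave 12, all higher. Shares over all genes under those 2 fits are not given here, so no excess is read from these counts. In the authors' deposited tables for this pair, 4 of 54 gene features with an adjusted p-value were below 0.05 at HH21, against 8.48% of all features, 18 of 53 at HH25, against 11.1%, and 9 of 53 at HH29, against 5.97%. The authors' deposited tables of muff and grouse hindlimb had 2 of 54 below that threshold at the first stage (4.96% of all features), 7 of 53 at the second (8.41%) and 7 of 54 at the last (7.33%). Unadjusted counts in the other 11 comparisons were 2 to 9 (921 to 1843 over all genes), and DESeq2 called 1 gene for muff against scale at HH21 in each limb and none in the other 9. Muscle markers were lower in muff than in scale at HH25, with a median of -0.97 in hindlimb and -0.73 in forelimb (1 and 0 of 17 genes called), and their part was not tested.

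Whether the stage change differed between phenotypes was tested directly, and edgeR called none of the 52 in any of 18 tests (0 to 28 at unadjusted p below 0.05, with 0% to 0.33% of all genes called in a direction by adjusted p). DESeq2 was not run for these tests. The fall at HH29 relative to HH25 was larger in muff than in scale by a median of -0.30 in hindlimb and -0.30 in forelimb, with 28 and 26 genes at unadjusted p below 0.05. By adjusted p, 0.00786% of all genes were called lower in the hindlimb test and 0% in the forelimb test. These shares are no background for the unadjusted counts, and the share of all genes at unadjusted p below 0.05 is not given here. With the term for replicates 1 and 2 against 3 and 4, 2 members were called lower in that hindlimb test.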

How the data were processed

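RNA-seq was done on limb buds of domestic pigeon embryos with a stranded, poly(A)-selecting kit, per the labels. The deposited values are raw read counts per gene feature. The submitters' processing notes name FastQC, STAR, featureCounts and DESeq2, while tool versions, the genome build and the strand setting are not given in the sources. The authors' deposited comparison tables also hold p-values and adjusted p-values, of which counts of adjusted p-values in all 12 tables are quoted as the authors' own. Per-sample columns that belong to no listed sample numbered 0. The 24 chicken libraries were not analysed here.

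Features were summed per gene name over the whole table. Tests used R 4.3.3 and edgeR 4.0.16 with filterByExpr, TMM scaling and the quasi-likelihood test. Adjusted p-values are Benjamini-Hochberg values over all genes of each comparison. The comparisons were 6 of stages, 3 of limbs, 18 of phenotypes, 3 of the stage change between limbs and 18 of the stage change between phenotypes, plus the stage change within each phenotype. Log2 CPM used a pseudocount of 0.5. On simulated counts for hindlimb at HH29 relative to HH21, 76% of 1.5-fold and 95% of 2-fold changes were recovered. For muff against scale in hindlimb at HH29, 43% of 1.5-fold and 80% of 2-fold changes were recovered. Precision was limited by counting error and by the spread between libraries of a group, and the library totals are in the report.

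Replicate numbers were checked as pairs. Hindlimb and forelimb of the same phenotype, stage and number correlated at 0.38 to 0.65 at HH21, 0.50 to 0.71 at HH25 and 0.17 to 0.70 at HH29 in their deviations from group means. All 36 lay over 0.1, each library correlated best with its own number, and the labels speak of pairs of buds. Paired limb results are therefore given beside the unpaired ones.

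The members and gene lists were chosen with earlier results of these data known. In the stage comparisons, genes were named by role as the called ones with the largest and smallest changes, those not called or called against the majority, and the 8 largest changes. In the other comparisons, any called gene could be named, and in the pathway lists the 3 largest changes each way in hindlimb. MCM2, MCM3, MCM5, CDK1, AURKA, UHRF1 and others were named outside that rule for their known roles. Alternatives were DESeq2 1.42.0, RLE scaling, library totals, no filter, tests per feature, a replicate term, the replicate block, the Z level as a covariate and single replicates left out. Promoter motifs were planned but not analysed.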

Additional observations from a re-analysis of the deposited data

Results flagged for a closer look

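Libraries that stood apart within a group of 4 were looked for in 96 groups: the summed level of the 52 genes in all 18 groups, the 8 genes called between phenotypes with CDC6, CDT1 and BIRC5 at HH29, and MELK and SMC2 at HH25. In 8 of the 96, the gap between the highest or lowest library and its nearest neighbour as a share of the range exceeded Dixon's critical value. Chance gives about 1 in 20 in groups that were not picked by their values. Here CDC6, CDT1, BIRC5, MELK and SMC2 were included with the values of their single libraries already known, and 4 of the 8 are theirs, so the count of 8 cannot be read against that rate. None of the 8 was a summed level. Grouse forelimb at HH29 held 3 of the 8. CDC6 was at 0.897 CPM in replicate 2 there, against 12.1 to 13.5 CPM in the others. CKAP2 was at 398 CPM in replicate 2 of that group, against 318 to 323 CPM, and TPX2 was at 217 CPM in replicate 4, against 236.9 to 239.7 CPM.

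Scale forelimb at HH29 had CDT1 at 30.7 CPM in replicate 1, against 47.2 to 48.7 CPM in the others, and NUSAP1 at 126 CPM in replicate 2, against 137 to 139 CPM. Scale hindlimb at HH29 had CENPE at 159 CPM in replicate 1, against 172 to 173.5 CPM. MELK at HH25 was at 210.6 CPM in muff forelimb replicate 1, against 94.1 to 105 CPM, and at 185 CPM in grouse forelimb replicate 4, against 96.2 to 111 CPM. Both of those libraries had a Z level above 0 (0.39 and 0.26), and the other 3 libraries of each group lay below 0. BUB3 differed between limbs in its change at HH29 relative to HH21 by -0.18 in log2, hindlimb minus forelimb, by the test of the difference itself given in the report. In that test 1.86% of all genes were called lower, and leaving out any 1 replicate ended the call for BUB3.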

How the results depend on the processing

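The stage counts moved by less than 1.5 times under every alternative run: counts of called genes, leaving out single replicates, were 46 to 47, 49 to 51 and 50 to 51 in hindlimb and 47, 44 to 45 and 50 to 52 in forelimb for HH25 over HH21, HH29 over HH25 and HH29 over HH21. Library totals moved the median of all genes in hindlimb at HH29 over HH21 to 0.12, beside 0.02 with TMM, and the members' median to -0.89. Of called single genes, 3190 stage values over all alternatives stayed called and 44 did not. For the limbs, 57 stayed called and 12 did not, for the phenotypes 121 and 88, and for the stage change between limbs 9 and 4.

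With the replicate block pairing the limbs, the limb comparisons called 27 genes at HH21, 33 at HH25 and 11 at HH29. RLE scaling gave the same counts. The block with library totals gave 16, 32 and 11. Without muff numbers 2 and 4 it gave 14 at HH21. The pairing without single replicates gave 7 to 30 at HH21, 23 to 29 at HH25 and 4 to 16 at HH29, and the unpaired tests without single replicates 0 to 1, 0 to 1 and 1 to 2. Unpaired at HH21, DESeq2 called 3, library totals 0, no filter 0 and the term for replicates 1 and 2 against 3 and 4 called 4; at HH25 that term gave 7. For the stage change between limbs, the block gave 28 for HH29 over HH25 (28 with RLE scaling or library totals, 13 to 23 without single replicates). For HH29 over HH21 it gave 32 (34 with RLE scaling, 22 with library totals, 21 without muff numbers 2 and 4, and 24, 26, 18 and 21 without replicate 1, 2, 3 or 4), and without pairs 0 when any 1 replicate was left out. For HH25 over HH21 it gave 0 to 1 without single replicates. Shares over all genes are given in the report for the unpaired fit and the full block alone.

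Numbers across phenotypes correlated over 0.1 in 45 of 72 cases (-0.29 to 0.47, median 0.16), and across stages in 13 of 72 (median -0.05). Libraries of the same number thus shared some deviation across phenotypes, though less than the limb pairs did. Whether each correlated best with its own number was not checked there. The block fits across phenotypes, with a term for each number, are given beside the main ones. For muff against scale, DESeq2 called 1 at HH21 in each limb, 6 in hindlimb at HH25, 2 in hindlimb at HH29 and 7 in forelimb at HH29. The replicate term gave 1 in hindlimb at HH21, 12 in hindlimb and 4 in forelimb at HH25, and 2 in hindlimb at HH29. The block gave 6 in hindlimb and 1 in forelimb at HH25 and 0 in both at HH29. No filter, the Z level and RLE scaling gave 2 in hindlimb at HH29, and tests per feature 0 in forelimb at HH29. For muff against grouse, the replicate term gave 1 in hindlimb and 2 in forelimb at HH25, the block 1 in hindlimb at HH25 and 3 in forelimb at HH29, and DESeq2 4 in hindlimb and 17 in forelimb at HH29. Leaving out single libraries gave 0 to 3 in hindlimb and 0 to 1 in forelimb for muff against scale at HH25, and 0 to 2 in hindlimb and 0 to 8 in forelimb at HH29. For muff against grouse at HH29 it gave 0 to 4 in hindlimb and 0 to 9 in forelimb. For muff minus scale in hindlimb the replicate term gave 2 for HH29 over HH25 and 1 for HH29 over HH21, and muff minus grouse in forelimb gave 0 to 1 without single replicates for HH29 over HH25. Shares over all genes under these alternatives are not given here, so no excess is read from these counts. The cause of these shifts was not tested.

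Values that changed sign were all of uncalled genes: CCND1 at HH25 over HH21 in hindlimb without replicate 1 (-0.017, in a range of -0.017 to 0.132) and in forelimb with library totals (0.007), and CCND2 at HH29 over HH25 in hindlimb with library totals (0.012) or without replicate 3 (0.024, in a range of -0.079 to 0.024) and in forelimb without replicate 2 (-0.031) or 4 (-0.009, in a range of -0.031 to 0.123). SMC2 changed sign in forelimb at HH25 over HH21 without replicate 4 (0.061, in a range of -0.184 to 0.061) and at HH29 over HH25 without replicate 1 (0.085, in a range of -0.365 to 0.085), MELK at HH29 over HH25 without replicate 1 (0.074, in a range of -0.427 to 0.074), and CKAP5 there with library totals (0.005) or without replicate 2 (0.013, in a range of -0.077 to 0.013). With 4 libraries a group, changes under 1.5-fold between phenotypes lie near what these tests could call.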

Other observations

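Within groups, the members varied together to different degrees. Over the 72 libraries, which share their scaling and depth, the correlation of a gene's deviation from its group mean with the mean deviation of the other 51 ran from -0.25 for CDC6 to 0.83 for TOP2A, with a median of 0.61. CDC6, CDT1 (-0.06), CCNB3 (0.02), BIRC5 (0.04) and MCM5 (0.06) followed the others least. Across the 1326 pairs of genes the correlation had a median of 0.35, with a lowest value of -0.65 and a highest of 0.97. These pairs include the Z-linked MELK and SMC2, which correlated with the Z level at 0.97 and 0.96 within groups. These values are descriptions and carry no test.

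Grouse forelimb replicate 2 at HH29, the library with the low CDC6 value, also had the lowest values of its group for CDT1 and BIRC5, an inhibitor of apoptosis that works at the centromere. CDT1 was at 22.6 CPM there, against 43.7 to 53.5 CPM in the other 3 libraries, and BIRC5 was at 21.4 CPM, against 41.7 to 55.1 CPM.

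Most marker lists of other cell types also changed with stage. The background at HH29 relative to HH21 was 36.8% of all genes higher and 34.6% lower in hindlimb, and 35.4% and 33.2% in forelimb. At HH29 relative to HH21, 7 of 8 measured limb mesenchyme genes fell in hindlimb and 6 of 8 in forelimb, with 1 higher in each, and 8 of 9 endothelium genes rose in hindlimb and 7 of 9 in forelimb. Of the 5 nerve and neural crest genes tested, 4 rose in hindlimb, and 4 rose and 1 fell in forelimb. The 5 macrophage and leukocyte genes tested all rose in hindlimb, and 4 of 5 did in forelimb. Of 6 ectoderm genes, 1 rose and 2 fell in hindlimb, and 2 rose and 2 fell in forelimb, near or below those background shares. None of the 3 red blood cell genes was called by edgeR in either limb.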
